A study of Leucocroton havanensis with 4 samples.

Results

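Nickel-grown roots of Leucocroton havanensis held 96 transcript contigs at 1/3 or less of their level in nickel-free roots. Between the shoots, the same contigs were within 2-fold by the ratio defined below. For 36 of the 96, counting error also left the shoot ratio wholly within 2-fold. L. havanensis is a Cuban shrub of the spurge family that stores nickel in its tissues. The contigs were chosen from the measured values of all 4 libraries, as those with a mean of at least 1 CPM (reads per 1000000 counted reads) over the root libraries, a root ratio with over without nickel of at most 1/3, and a shoot ratio above 0.5 and below 2, with 0.1 CPM added to each value before a ratio. They are 96 of the 65936 contigs in the files and of the 28642 that reached the root level. The groups were root with nickel, root without nickel, shoot with nickel and shoot without nickel, each 1 RNA library from plantlets raised in vitro on Murashige and Skoog agar for 6 weeks after germination. The growth text, worded alike for every library, names 500 mg/L NiSO4, taken here as the dose of the nickel groups. No age, genotype or number of pooled plantlets is stated beyond this. The shoot library with nickel is labelled as a re-analysis of an earlier library, so in shoot the origin of the library and the nickel treatment cannot be told apart.

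In plants that hyperaccumulate nickel, the root is the organ that takes up the metal and loads it into the xylem, and the shoot is where most of it is stored. Nickel can enter roots through transporters that also carry iron and other divalent metals, and inside the plant it is carried bound to ligands such as organic acids, histidine and nicotianamine. Transcripts of such functions could not be looked for here, because the files used give contig identifiers without gene names, and no role is given to any contig below.

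The libraries held 55660570 counted reads for root with nickel, 59802565 for root without nickel, 98108920 for shoot with nickel and 84917997 for shoot without nickel. With 1 library per group there is no replicate, no test was possible between groups, and no difference below has a replicate check. Intervals are exact 95% intervals of the ratio of 2 counts and include counting error only. Of the counts from 1 to 20, 55.5% to 61.6% were even numbers in the 4 libraries, and the intervals are too narrow to the extent that both reads of a pair were counted. Contig lengths were not used, so levels are compared between libraries and not between contigs. In whole organs, fewer cells of a type and less RNA per cell cannot be told apart.

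Lower levels in root were uncommon at this size. Of the 28642 contigs, 147 (0.513%) had a root ratio of 1/3 or less, and 228 (0.796%) had a ratio of 3 or more. This order turned with the scaling, with 216 lower and 150 higher by TMM and 210 lower and 153 higher by DESeq2 size factors. The 147 divided by their shoot ratio into the 96 described here (0.335% of the 28642), 18 that were also at 0.5 or less in shoot and 33 that were at 2 or more in shoot. The 96 were 65.3% of the 147, whereas 85.8% of all 28642 contigs lay in the same shoot window. Together the 96 contigs took 0.0281% of the reads in root with nickel and 0.105% in root without nickel, against 0.106% in shoot with nickel and 0.121% in shoot without nickel.

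**Figure D1:**
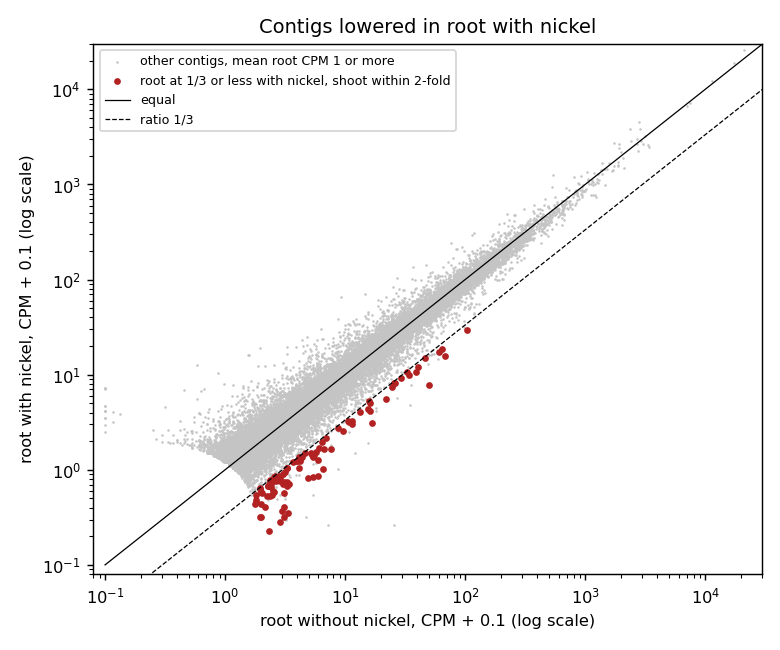
CPM plus 0.1 in root with nickel (vertical, log scale) against root without nickel (horizontal, log scale) for 28642 contigs with a mean root level of at least 1 CPM. The 96 contigs, in red, lie on or under the dashed line of a ratio of 1/3 and reach from 1.67 to 103.67 CPM in root without nickel.

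The rule fixed that the root ratio was low, so its size is given as a description. The median of the 96 contigs was 0.934 CPM in root with nickel (range 0.126 to 29.7) and 3.96 CPM in root without nickel (range 1.67 to 103.67). The median log2 ratio was -1.84, that is 3.58-fold lower with nickel, against 0.03 over all 28642 contigs. Of the 96, 62 were 3- to 4-fold lower, 21 were 4- to 6-fold lower, 8 were 6- to 8-fold lower and 5 were more than 8-fold lower. None was without reads in root with nickel, where the lowest count was 7 reads. The exact interval lay wholly below a ratio of 0.5 for all 96, against 1.18% of the 28642 contigs, a count that the rule largely sets.

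The number of contigs rested on the scaling. With TMM scaling, which discounts contigs of extreme ratio, 147 contigs met the same rule, a set that is not the 147 above but equal in number, and 90 of the 96 were among them. With DESeq2 size factors 141 contigs met it, including 86 of the 96. The highest root ratio among the 96 was 0.332 with column totals, 0.301 with TMM and 0.302 with DESeq2 size factors, so all 96 kept a root ratio under 1/3. The median log2 root ratio of all 28642 contigs moved from 0.03 with column totals to -0.13 with TMM, and that of the 96 moved from -1.84 to -1.99.

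Among those of the 96 with at least 100 reads in root without nickel, the lowest ratio was that of Lhav_v2_contig_15297. It had 7 reads (0.126 CPM) in root with nickel and 132 reads (2.21 CPM) in root without nickel, 17.6-fold lower in counts per total (interval 8.28 to 44.5). In shoot it had 437 reads (4.45 CPM) with nickel and 205 reads (2.41 CPM) without nickel. Its root level was thus 35.4-fold below its shoot level with nickel and close to it without nickel.

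Lhav_v2_contig_4251 had 10 reads (0.18 CPM) in root with nickel and 164 reads (2.74 CPM) in root without nickel, 15.3-fold lower (interval 8.09 to 32.4). Its shoot levels were 14.1 CPM with nickel and 10.9 CPM without nickel, above root in both conditions. Lhav_v2_contig_17709 had a like pattern, with 15 reads (0.269 CPM) in root with nickel and 171 reads (2.86 CPM) in root without nickel, against 9.76 CPM in shoot with nickel and 11.6 CPM in shoot without nickel. Both contigs were higher in shoot than in either root library.

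Lhav_v2_contig_26362 was the one contig of the 96 that lay at least 2-fold below shoot with nickel and at least 2-fold above shoot without nickel. Its counts were 12 reads (0.216 CPM) in root with nickel and 180 reads (3.01 CPM) in root without nickel, against 160 reads (1.63 CPM) in shoot with nickel and 80 reads (0.942 CPM) in shoot without nickel. Lhav_v2_contig_52449 had 14 reads (0.252 CPM) in root with nickel and 193 reads (3.23 CPM) in root without nickel, 12.8-fold lower (interval 7.46 to 23.9). Its shoot levels were 0.336 CPM with nickel and 0.247 CPM without nickel. Root over shoot with nickel was 0.748 (14 against 33 reads), with an interval of 0.370 to 1.44 that held 1. Without nickel, root was 13.1-fold above shoot (193 against 21 reads).

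The next contigs by ratio had few shoot reads or many. Lhav_v2_contig_61597 had 17 reads in root with nickel and 180 reads in root without nickel, against 18 and 7 reads in shoot with and without nickel. Lhav_v2_contig_57841 had 42 reads in root with nickel and 350 reads in root without nickel, with 8 and 4 reads in the same order in shoot. For Lhav_v2_contig_55307 the root counts were 51 reads with nickel and 389 reads without nickel, and the shoot counts were 28 and 31 reads. These 3 contigs were root-rich without nickel. Lhav_v2_contig_19072 had 41 reads (0.737 CPM) in root with nickel and 317 reads (5.3 CPM) in root without nickel, while its shoot levels were 11.5 CPM with nickel and 8.78 CPM without nickel.

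The lowered contigs had fewer large folds than their raised counterparts, while the medians were close. The same root level and shoot window with a root ratio of 3 or more gave 146 contigs (0.51% of the 28642), with a median of 3.79-fold higher with nickel. Of these 146, 19 were at least 10-fold higher and 11 had no read in root without nickel. Of the 96 lowered contigs, 2 were at least 10-fold lower on the scale with 0.1 CPM added and 0 had no read in root with nickel. On that scale the largest difference among the 96 was 10.2-fold, whereas it was 98.1-fold among the 33 contigs that were higher in shoot. With TMM, 4 of 147 lowered and 17 of 86 raised contigs were past 10-fold, with medians of 3.64-fold lower and 3.93-fold higher. These sizes come from the values that chose both sets and are descriptions. A contig of low level cannot show a large fold on this scale. The median root level was 2.51 CPM for the lowered and 2.31 CPM for the raised contigs. The part of root level in the number of large folds was not tested.

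**Figure D2:**
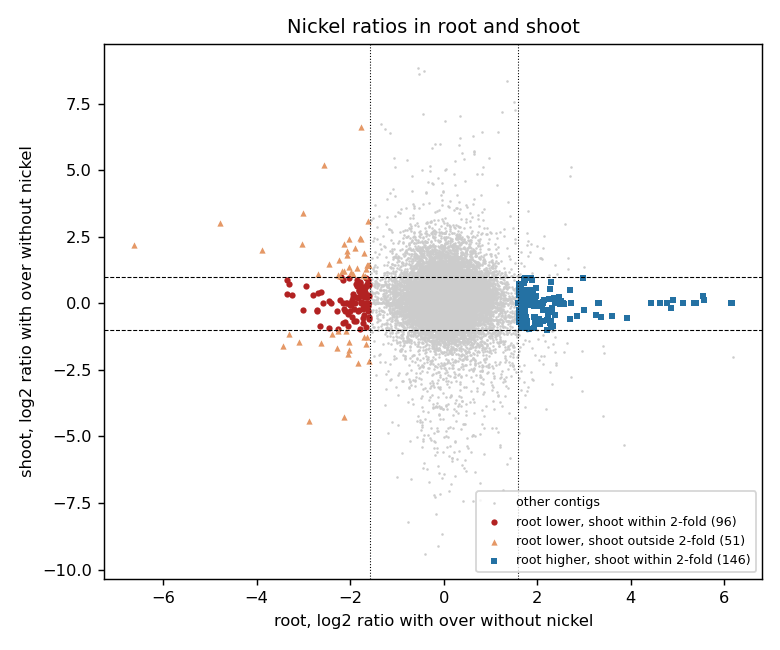
Log2 ratio with over without nickel in shoot (vertical) against root (horizontal) for 28642 contigs. Dashed lines mark the 2-fold shoot window and dotted lines a 3-fold root difference. The 96 lowered contigs reach 10.2-fold, whereas the raised contigs in the same window reach 71.8-fold.

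The condition on shoot was met in unlike ways. For 36 of the 96 contigs, the interval of the shoot ratio lay wholly between 0.5 and 2 (71.9% of the 28642 contigs did so). Another 25 had under 10 reads in both shoot libraries (2.57% of the 28642), and for these the added 0.1 CPM largely sets the ratio. The other 35 had more shoot reads, but an interval that reached past 0.5 or 2. Among the 36, the interval held a ratio of 1 for 10 contigs, lay above 1 for 13 and below 1 for 13, so a shoot change under 2-fold is what was measured for them. For the 25 with few reads a difference was not detectable at this depth. Over all 96, the shoot interval lay wholly above 1 for 27 (47.1% of the 28642 contigs) and wholly below 1 for 21 (25.8%), a balance that turned to 16 above and 26 below with TMM and to 15 and 27 with DESeq2 size factors. With column totals, the shoot ratio was above 1 for 46 of the 96 and below 1 for 36. The 14 without a shoot read have a log2 ratio of 0.0 through the added 0.1 CPM alone. The median of the 96, also 0.0, falls on these 14 and is no measure of a steady shoot level. Over the 28642 contigs the median was 0.13 with column totals, -0.11 with TMM and -0.22 with DESeq2 size factors.

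The name root-restricted describes the expression of at most a part of these contigs. As to the nickel difference, the shoot interval excluded a ratio of 1 for 48 of the 96. Over all contigs this was more frequent, with 47.1% of the 28642 wholly above 1 and 25.8% wholly below it. The 2 shares are not alike in kind, because the rule leaves out shoot ratios beyond 2-fold. The 96 also had fewer shoot reads, and for 25 with under 10 of them the interval held 1. The part of these in the difference was not tested. With nickel, 35 of the 96 contigs exceeded their shoot level at least 4-fold in root, against 14.5% of the 28642 contigs. Without nickel, 55 of the 96 did so, against 15.7%. At least 1 read in a shoot library was found for 82 of the 96. The other 14 had none, against 0.887% of the 28642 contigs. At least 4-fold below shoot were 22 of the 96 with nickel (4.64% of the 28642) and 5 without nickel (4.55%). The rule selects a high root value without nickel and a low one with nickel, so it pulls the organ ratios apart in opposite directions, and the share above shoot was higher than over all contigs in both.

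**Figure D3:**
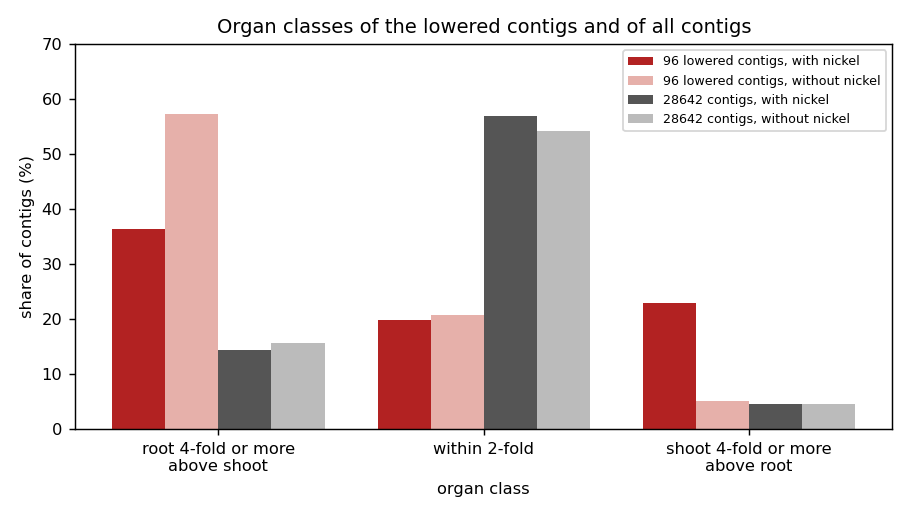
Share (vertical, %) of contigs with root 4-fold or more above shoot, within 2-fold, or with shoot 4-fold or more above root, for the 96 lowered contigs (red tones) and all 28642 contigs (grey tones). With nickel 36.5% and without nickel 57.3% of the lowered contigs were in the root class, against 14.5% and 15.7% of all contigs.

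By root level, the shares were as follows, and they use the same root values as the rule. Among the 78 contigs with a mean root level of 1 to 10 CPM, 35.9% were at least 4-fold above shoot with nickel and 53.8% without nickel, against 16.4% with nickel and 17.9% without nickel of the 15068 contigs at that level. Among the 18 contigs at 10 CPM or more, these shares were 38.9% with nickel and 72.2% without nickel, against 12.3% with nickel and 13.2% without nickel of 13574 contigs. Without any condition on the shoot libraries, 29.9% with nickel and 53.7% without nickel of the 147 lowered contigs were at least 4-fold above shoot. The share without nickel does not use the re-analysed library, but its root value is the one that the rule selects as high.

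Root and shoot levels were loosely related across the 96 contigs. Pearson's r of log2 values between root and shoot was 0.20 with nickel and 0.21 without nickel, compared with 0.74 and 0.76 over the 28642 contigs. The 96 were chosen on root values, and 81.25% had a mean root level under 10 CPM, against 52.6% of the 28642. The part of this in the lower r was not tested. Between the root libraries r was 0.97 for the 96 and 0.97 over the 28642 contigs. Between the shoot libraries it was 0.99 and 0.94 in the same order. The rule limits the nickel ratio in each organ, so the values of the 96 are partly set by it. These correlations run across contigs counted in the same libraries and are descriptions.

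**Figure D4:**
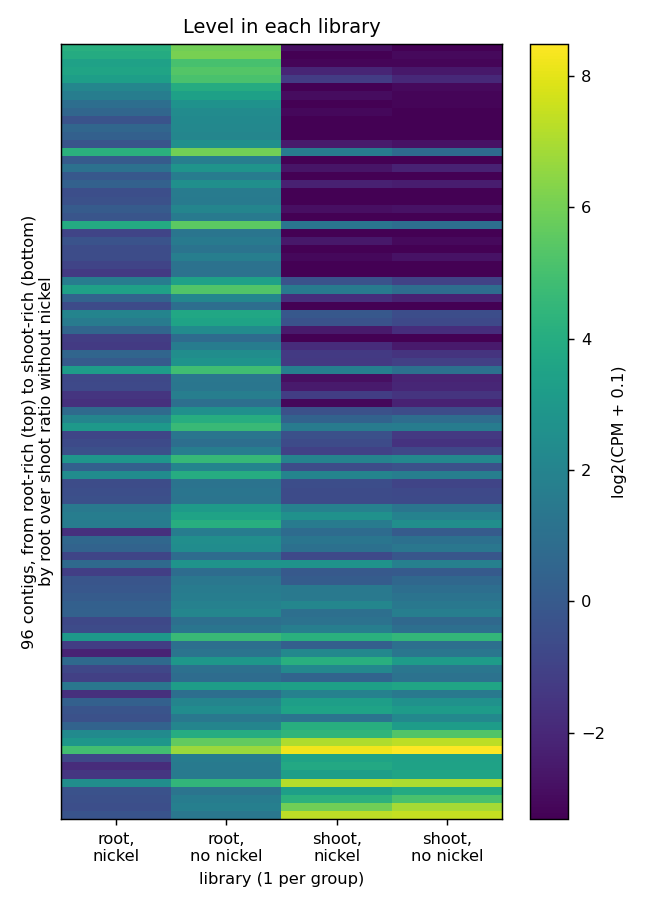
Level of the 96 contigs (rows) in the 4 libraries (columns), as log2 of CPM plus 0.1 by colour, ordered by the ratio of root over shoot without nickel. Rows at the top are near 0 CPM in both shoot libraries, and rows at the bottom are brighter in shoot than in root.

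The largest class held 43 contigs at least 10-fold above shoot without nickel, 6.44% of the 28642 contigs being so. Their median was 1.17 CPM in root with nickel and 5.08 CPM in root without nickel, against 0.0408 CPM in shoot with nickel and 0.0236 CPM in shoot without nickel. With nickel, 35 of the 43 still lay at least 4-fold above shoot and 1 was within 2-fold of it. The shoot interval lay wholly within 2-fold for only 2 of the 43, and 25 had under 10 reads in both shoot libraries.

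The root-rich contigs with most reads kept a clear root level with nickel. Lhav_v2_contig_509 had 863 reads (15.5 CPM) in root with nickel and 4021 reads (67.2 CPM) in root without nickel, 4.34-fold lower (interval 4.03 to 4.67). It had 0 reads in shoot with nickel and 2 reads in shoot without nickel. Taking 3 reads as the floor for the shoot library, root with nickel was at least 507-fold above shoot. The exact interval of this ratio reached down to 411-fold.

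Lhav_v2_contig_57891 had 958 reads (17.2 CPM) in root with nickel and 3642 reads (60.9 CPM) in root without nickel, 3.54-fold lower (interval 3.29 to 3.80). It had 4 reads in shoot with nickel and 0 in shoot without nickel, where root was at least 1724-fold higher against the same floor. The exact interval reached down to 1401-fold there. Lhav_v2_contig_28151 had 592 reads (10.6 CPM) in root with nickel and 1964 reads (32.8 CPM) in root without nickel, with 1 read in each shoot library. In these 3 contigs nearly all reads came from root.

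Other root-rich contigs had measurable shoot levels. Lhav_v2_contig_30927 had 1019 reads (18.3 CPM) in root with nickel and 3797 reads (63.5 CPM) in root without nickel, 3.47-fold lower (interval 3.24 to 3.72). In shoot it had 292 reads (2.98 CPM) with nickel and 141 reads (1.66 CPM) without nickel, a ratio of 1.79 (interval 1.46 to 2.21). Root therefore exceeded shoot 6.15-fold with nickel and 38.2-fold without nickel.

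Lhav_v2_contig_30615 had 833 reads (15.0 CPM) in root with nickel and 2749 reads (46.0 CPM) in root without nickel, against 2.27 CPM in shoot with nickel and 1.83 CPM in shoot without nickel. Lhav_v2_contig_4730 had 594 reads (10.7 CPM) in root with nickel and 2308 reads (38.6 CPM) in root without nickel, against 2.82 CPM and 1.77 CPM in shoot with and without nickel. Both were 3- to 4-fold lower in root with nickel. Lhav_v2_contig_43369 had 662 reads (11.9 CPM) in root with nickel and 2429 reads (40.6 CPM) in root without nickel, with 13 shoot reads with nickel and 6 without nickel. Lhav_v2_contig_44232 had 542 reads (9.74 CPM) in root with nickel and 2021 reads (33.8 CPM) in root without nickel, with 32 shoot reads with nickel and 13 without nickel.

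No read was found in either shoot library for 14 of the 96 contigs, against 0.887% of the 28642. The 5 with most root reads were Lhav_v2_contig_64986, Lhav_v2_contig_64051, Lhav_v2_contig_60941, Lhav_v2_contig_64085 and Lhav_v2_contig_63962. Lhav_v2_contig_64986 had 40 reads (0.719 CPM) in root with nickel and 289 reads (4.83 CPM) in root without nickel, 6.72-fold lower (interval 4.82 to 9.61). The other 4 had 47 to 78 reads in root with nickel and 183 to 270 reads in root without nickel, 3.22- to 3.62-fold lower. A count of 0 allows up to 3 reads, which is 0.0306 CPM in shoot with nickel and 0.0353 CPM in shoot without nickel.

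A class of 20 contigs was within 2-fold between organs without nickel, where 54.2% of the 28642 contigs lay. Their median was 0.746 CPM in root with nickel and 2.73 CPM in root without nickel, against 3.37 CPM in shoot with nickel and 2.50 CPM in shoot without nickel. With nickel, 9 of the 20 were at least 4-fold below shoot, 9 were 2- to 4-fold below it and 2 stayed within 2-fold.

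Lhav_v2_contig_12511 had 453 reads (8.14 CPM) in root with nickel and 1517 reads (25.4 CPM) in root without nickel, against 17.9 CPM in shoot with nickel and 22.2 CPM in shoot without nickel. Lhav_v2_contig_12131 had 136 reads (2.44 CPM) in root with nickel and 567 reads (9.48 CPM) in root without nickel, against 10.4 CPM in shoot with nickel and 12.1 CPM in shoot without nickel. Both had a shoot interval wholly within 2-fold, and both lay below their shoot level in root with nickel.

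Lhav_v2_contig_591 and Lhav_v2_contig_11200 lay at the upper edge of the shoot window. Lhav_v2_contig_591 had 86 reads (1.55 CPM) in root with nickel and 446 reads (7.46 CPM) in root without nickel, against 1721 reads (17.5 CPM) in shoot with nickel and 744 reads (8.76 CPM) in shoot without nickel. Lhav_v2_contig_11200 had 86 reads (1.55 CPM) in root with nickel and 392 reads (6.55 CPM) in root without nickel, against 656 reads (6.69 CPM) in shoot with nickel and 290 reads (3.42 CPM) in shoot without nickel. Their shoot ratios of 1.99 and 1.93, with 0.1 CPM added, were nearly large enough to place them outside.

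Shoot-rich contigs were a minority. With nickel, all 12 contigs that had been at least 2-fold above root in shoot without nickel exceeded root 4-fold or more. Without nickel, 7 of these 12 had a shoot excess of 2- to 4-fold and 5 a larger one. The rule itself makes the shoot excess of each contig larger with nickel. The highest count of the 96 belonged to Lhav_v2_contig_4646, with 1652 reads (29.7 CPM) in root with nickel and 6200 reads (103.67 CPM) in root without nickel, 3.49-fold lower (interval 3.31 to 3.69). In shoot it had 29476 reads (300.44 CPM) with nickel and 30483 reads (359 CPM) without nickel, a ratio of 0.837 (interval 0.824 to 0.850). Shoot was 10.1-fold above root with nickel and 3.46-fold above it without nickel.

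Lhav_v2_contig_3478 had 425 reads (7.64 CPM) in root with nickel and 3012 reads (50.4 CPM) in root without nickel, 6.60-fold lower (interval 5.96 to 7.32). In shoot it had 13086 reads (133 CPM) with nickel and 13442 reads (158 CPM) without nickel. Lhav_v2_contig_1001 had 306 reads (5.50 CPM) in root with nickel and 1307 reads (21.9 CPM) in root without nickel, 3.98-fold lower (interval 3.51 to 4.52), and its shoot levels were 142 CPM with nickel and 130.1 CPM without nickel. The shoot counts of both were large, so counting error left little room in their shoot ratios.

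Lhav_v2_contig_4758 had 41 reads (0.737 CPM) in root with nickel and 147 reads (2.46 CPM) in root without nickel, against 159.88 CPM in shoot with nickel and 173 CPM in shoot without nickel. It was the contig with the largest shoot excess, at 217-fold with nickel and 70.3-fold without nickel. Lhav_v2_contig_4978 had 34 reads (0.611 CPM) in root with nickel and 198 reads (3.31 CPM) in root without nickel, against 61.0 CPM in shoot with nickel and 119 CPM in shoot without nickel. Its shoot ratio of 0.511 lay just inside the window. Lhav_v2_contig_17265 had 36 reads in root with nickel and 179 reads in root without nickel, against 1861 reads in shoot with nickel and 2892 reads in shoot without nickel.

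**Figure D5:**
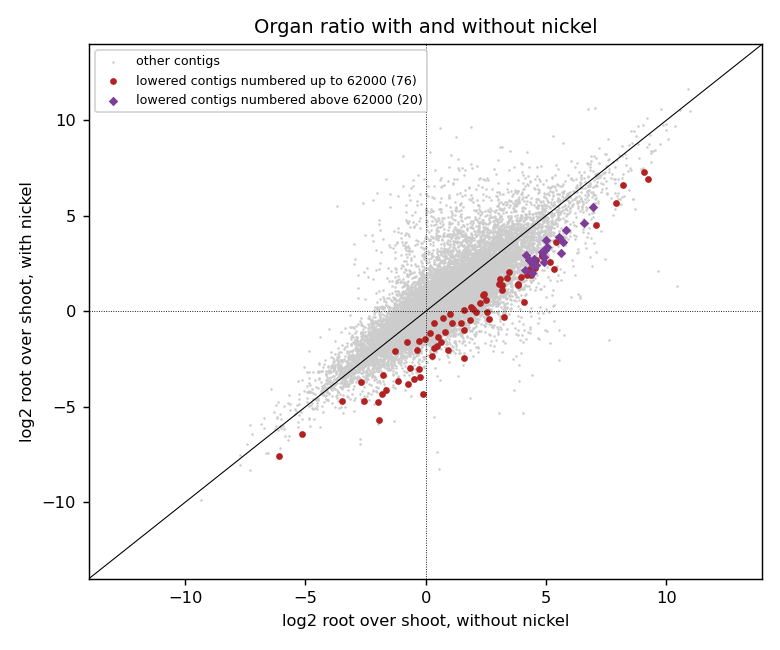
Log2 ratio of root over shoot with nickel (vertical) against the same ratio without nickel (horizontal), with 0.1 CPM added, for 28642 contigs. The 96 lowered contigs lie below the line of equal ratios, which the rule makes certain. The 20 numbered above 62000, as diamonds, are at least 4-fold above shoot in both conditions.

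The order of the organs turned for some contigs. Root was above shoot for 54 of the 96 contigs with nickel and 74 without nickel. Of the 28642 contigs, 18011 with nickel and 18896 without nickel had root above shoot. Of the 74, 20 were below shoot with nickel. A move the other way was excluded by the rule and was seen for 0. Over the 28642 contigs, root lay below shoot with nickel and above it without nickel for 2646 (9.24%). A lowered root value and a shoot value in a fixed window make this direction likely by construction, and nothing is read from the share.

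A feature that the rule did not use was the number in the contig name. Contigs numbered above 62000, a limit chosen after the numbers were seen, were 20 of the 96 (20.8%), against 1.77% of the 28642 contigs. Those 20 were at least 4-fold above shoot in both conditions, and 17 of them had under 10 reads in both shoot libraries. Of all 507 contigs with such numbers, 94.1% with nickel and 74.8% without nickel were at least 4-fold above shoot, so the lowered ones are not set apart from them by this. They differ in this from the lower numbers over the whole set, where 32.7% of the 507 contigs above 62000 and 0.163% of the 17178 contigs up to 20000 had no shoot read. The raised contigs also had such numbers, in 38 of 146 cases. How the numbers were given is not stated in the sources used here, and the part of numbering in the result was not tested.

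Without the contigs numbered above 62000, 76 lowered contigs remained. Of these, 15 were at least 4-fold above shoot with nickel and 35 without nickel, that is 19.7% with nickel and 46.1% without nickel. The corresponding shares of the 28135 contigs with lower numbers were 13.0% with nickel and 14.6% without nickel. Below 62000 too, the share lowered among contigs with a mean root level of at least 1 CPM differed with the number. It was 0.163% of the 17178 such contigs numbered up to 20000 and 0.279% of the 8972 from 20001 to 40000. From 40001 to 62000 it was 1.16% of 1985, and above that 3.94% of 507. Of all contigs in these ranges, at any root level, the lowered were 28 of 20000, 25 of 20000, 23 of 22000 and 20 of 3936. Below 62000 the rise was thus seen only relative to contigs at that root level. No 2 of the 96 had adjacent numbers, and the smallest gap was 8.

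Levels near the threshold were continuous. The 3 contigs just inside the limit with at least 100 reads in root without nickel were Lhav_v2_contig_30174, Lhav_v2_contig_14810 and Lhav_v2_contig_39478, with root ratios of 0.332, 0.332 and 0.330. Just outside were Lhav_v2_contig_7634, Lhav_v2_contig_55346 and Lhav_v2_contig_19159, with 0.334, 0.334 and 0.335. Lhav_v2_contig_30174 had 289 reads (5.19 CPM) in root with nickel and 946 reads (15.8 CPM) in root without nickel, and Lhav_v2_contig_19159 had 172 reads (3.09 CPM) and 564 reads (9.43 CPM) in the same order. Within the same root level and shoot window, 62 contigs had a root ratio from 0.25 to 1/3 and 95 had one from 1/3 to 0.4, so the limit cuts a continuous range.

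The contig whose profile over the 4 libraries was nearest to the median profile of the 96 was Lhav_v2_contig_55141, at a Euclidean distance of 0.357 on the log2 scale. It had 64 reads (1.15 CPM) in root with nickel and 232 reads (3.88 CPM) in root without nickel, against 57 reads (0.581 CPM) in shoot with nickel and 56 reads (0.659 CPM) in shoot without nickel. The next were Lhav_v2_contig_23291 at 0.524 and Lhav_v2_contig_35910 at 0.769. Both lay outside the 96, with root ratios of 0.394 and 0.472.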

How the data were processed

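RNA was stabilised, extracted with TRIzol LS, treated with DNase and made into stranded polyA libraries with an Illumina TruSeq kit, per the labels' protocols. Per the file headers, the deposited values are whole-number counts of reads per contig, 1 file per library. Aligner, counting program and filters: not given in the sources used here. CPM was computed from column totals, without further scaling. Ratios had 0.1 CPM added, except where counts per total with an exact interval (conditional binomial, Clopper-Pearson, 95%) are given. Where a library had no read, 3 reads served as its floor, and the fold is written as at least. Calculations used Python 3.11.15, pandas 2.3.3 and scipy 1.17.1, and scaling factors came from edgeR 4.0.16 and DESeq2 1.42.0. No model was fitted between groups, since each had 1 library. The rule was checked on simulated data with larger decreases than most of the lowered contigs had. Decreases of the size that most of them had were not simulated.

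The members and lists were chosen with earlier results of these data known. Named contigs were those with the lowest root ratio among contigs of at least 100 reads in root without nickel (10), the highest mean root CPM (10), the highest root level without nickel in each of 3 organ classes (5 each), the nearest to the threshold (3 on each side), no shoot read (5), a turned organ order (up to 5) and the profile nearest to the median (3). Alternatives were other scalings, added CPM, filters, thinning, thresholds and shoot windows. Gene names and gene lists were not used here.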

Additional observations from a re-analysis of the deposited data

Results flagged for a closer look

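Listed here are contigs that were lower with nickel in root and higher with nickel in shoot, although inside the 2-fold shoot window. Each group was 1 library, so whether the organs differ was not tested. For 27 of the 96 contigs, the interval of the shoot ratio lay wholly above 1 (47.1% of the 28642 contigs did so) when column totals set the scale. Another 21 lay wholly below 1 (25.8% of the 28642 contigs). Of the 27, 16 remained above 1 with TMM and 15 with DESeq2 size factors. Lhav_v2_contig_591 had the highest lower limit, with a log2 ratio of -2.20 in root and 0.99 in shoot, a difference of -3.19 (root minus shoot).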

How the results depend on the processing

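Of 90 recalculations of 8 values, 42 stayed within 1.5 times the reported count or, for the median ratio, inside the binomial interval of the median over contigs. The others are given here. They concern the number of lowered contigs (96), those with a root interval below a ratio of 0.5 (96), those with a shoot interval wholly within 2-fold (36), those at least 4-fold above shoot with nickel (35) and without nickel (55), those at least 4-fold below shoot with nickel (22) and without nickel (5), and the median log2 root ratio (-1.84). TMM gave 147 contigs, all 147 with a root interval below 0.5, 67 with a shoot interval within 2-fold, 53 and 85 above shoot with and without nickel, and 9 below shoot without nickel. DESeq2 size factors gave 67 with a shoot interval within 2-fold and 9 below shoot without nickel. Adding 0.5 CPM gave 21 within 2-fold, 13 above shoot with nickel, and 12 and 3 below shoot with and without nickel. Adding 1 CPM gave 37 contigs, 37 with a root interval below 0.5, 10 within 2-fold, 9 and 22 above shoot with and without nickel, 7 and 1 below it, and a median of -1.76. Without a filter on root level there were 216 contigs, 216 with a root interval below 0.5, 69 within 2-fold, and 65 and 25 below shoot with and without nickel. At 10 CPM or more there were 18 contigs, 18 with a root interval below 0.5, 11 within 2-fold, 7 and 13 above shoot with and without nickel, and 4 and 1 below it. A ratio of 1/4 gave 34 contigs, 34 with a root interval below 0.5, 9 within 2-fold, 12 and 19 above shoot with and without nickel, 12 and 2 below it, and a median of -2.27. A shoot window of 2/3 to 1.5 gave 10 and 2 below shoot with and without nickel. Without any shoot condition there were 147 contigs, 147 with a root interval below 0.5, and 39 and 9 below shoot with and without nickel. Added after the data were seen, a limit to contigs numbered up to 62000 gave 15 and 35 above shoot with and without nickel. Thinning every library to the smallest total, and intervals from halved counts, also added later, moved none of the values they were run on past 1.5 times. The stricter settings keep fewer contigs by construction, and the cause of the other moves was not tested. The share at least 4-fold above shoot was 16.7% to 47.7% with nickel and 38.0% to 72.2% without nickel over these settings, against 7.93% to 14.6% and 8.08% to 15.7% of all contigs, and the rule selects the root value in both. No paired analysis was possible because each group had 1 library. For the same reason no replicate could be left out.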
